A study of Drosophila melanogaster with 9 samples.

Results

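RNA-Seq of *Drosophila* S2 cells gave 54 genes, of 17493 in the count table, whose mRNA was scarce in mitotic cycling control cells and clearly present after knockdown of *Cyclin A* (*CycA*). They were chosen on CPM, the count of a gene over the total of its library, scaled to a library of 1000000 counts. A member had a mean under 1 CPM after GFP dsRNA, at least 1 CPM in each of 3 CycA dsRNA libraries, and a mean after CycA dsRNA of at least 4 times the control mean and at least 2 times the mean after Myb dsRNA. In the control, 10034 genes had a mean under 1 CPM, 270 of these reached 1 CPM in each CycA dsRNA library, 91 of the 270 also passed 4 times the control, and the Myb dsRNA condition removed 37 of the 91. The same measurements therefore chose the genes and describe them, and the differences that the rule set are given as a description. The genes were scarce rather than silent in control cells: none was at 0 in any library, and their control counts, added over 3 libraries, ran from 6 to 115 with a median of 47.

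All 3 groups were S2-DGRC cells, a cultured line of embryonic origin, collected 96 h after treatment with double-stranded RNA (dsRNA). The mitotic cycling control received dsRNA against GFP, a jellyfish protein that flies lack. CycA dsRNA gave CycA dsRNA iECs and Myb dsRNA gave Myb dsRNA iECs, where iEC stands for induced endoreplicating cell. Each group had 3 biological replicates, sequenced from poly-A enriched RNA. Every sample is labelled with 12% serum, but the methods name a lower serum for S2 cells than for iECs and leave the GFP dsRNA cells unstated. If the control had less serum, its effect and that of the knockdown cannot be told apart.

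Endoreplicating cells copy their DNA without dividing. Cyclin A works with the kinase Cdk1 to bring cells into mitosis. Myb is a DNA-binding subunit of a complex with the MuvB proteins that turns on genes of mitosis and cytokinesis. Loss of either Cyclin A or Myb leads to cycles without division. S2 cells resemble blood cells (hemocytes) of the embryo, and many genes of other tissues, and of other states of blood cells, are barely transcribed in them. In a bulk library a higher level can mean that more cells had the RNA or that each cell had more of it, and these cannot be told apart.

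The trigger of the CycA dsRNA, which separates the chosen libraries from the other 6, was made from a stretch of *CycA* of 391 bases on chromosome arm 3L. Its first 60 bases are shown to identify the knockdown, in lower case throughout since no base is singled out.
CycA dsRNA: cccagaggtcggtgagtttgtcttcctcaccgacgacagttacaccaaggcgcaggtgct

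Library totals ran from 29128930 to 44280452 counts. *CycA* mRNA stood at 187, 179 and 183 CPM in the GFP dsRNA libraries, 23.2, 41.5 and 23.8 in the CycA dsRNA libraries and 275, 271 and 270 in the Myb dsRNA libraries, so that CycA dsRNA replicate 2 kept the most of its target. *Myb* mRNA stood at 225, 201 and 216 CPM in control, 159, 158 and 163 CPM after CycA dsRNA and 13.98, 15.9 and 13.2 CPM after Myb dsRNA. Both knockdowns thus show in their own libraries. Replicates differed by more than counting error (chi-square over its degrees of freedom 2.80 to 46.3 for pairs of the same group, highest for GFP dsRNA replicates 1 and 2). A gene is called below when edgeR's quasi-likelihood test over 9231 genes gave it a Benjamini-Hochberg adjusted p under 0.05 and the log2 fold change was 0.5 or more, or -0.5 or less.

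The level of the 54 genes, added up, was 22.8 to 25.6 CPM in the control libraries, 191 to 197 CPM in the CycA dsRNA libraries and 47.9 to 49.9 CPM in the Myb dsRNA libraries. In CycA dsRNA replicates 1, 2 and 3 the sums were 197, 191 and 193 CPM, and a relation to the *CycA* mRNA left was not tested. The median member rose from a mean of 0.411 CPM in control to 2.85 CPM after CycA dsRNA, against 0.763 CPM after Myb dsRNA. The ratio of CycA dsRNA to control was 6.45 in the median (4.10 to 119) and that of CycA dsRNA to Myb dsRNA 3.78 (2.11 to 16.2). All 54 were called higher in CycA dsRNA iECs than in control, beside 21.2% of all genes tested, and all 54 higher than in Myb dsRNA iECs, beside 15.4%. Of the genes tested, 1772 had a control mean under 1 CPM, and many of these passed the expression filter only through the group that raised them. Among the 1772, 53.8% were called higher and 3.33% lower in CycA dsRNA iECs than in control, and 26.4% higher and 21.8% lower than in Myb dsRNA iECs. In all 54 the 3 CycA dsRNA libraries lay above the other 6, as they did for 20.5% of genes tested. These counts follow from the rule, and nothing is read from them.

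**Figure D1:**
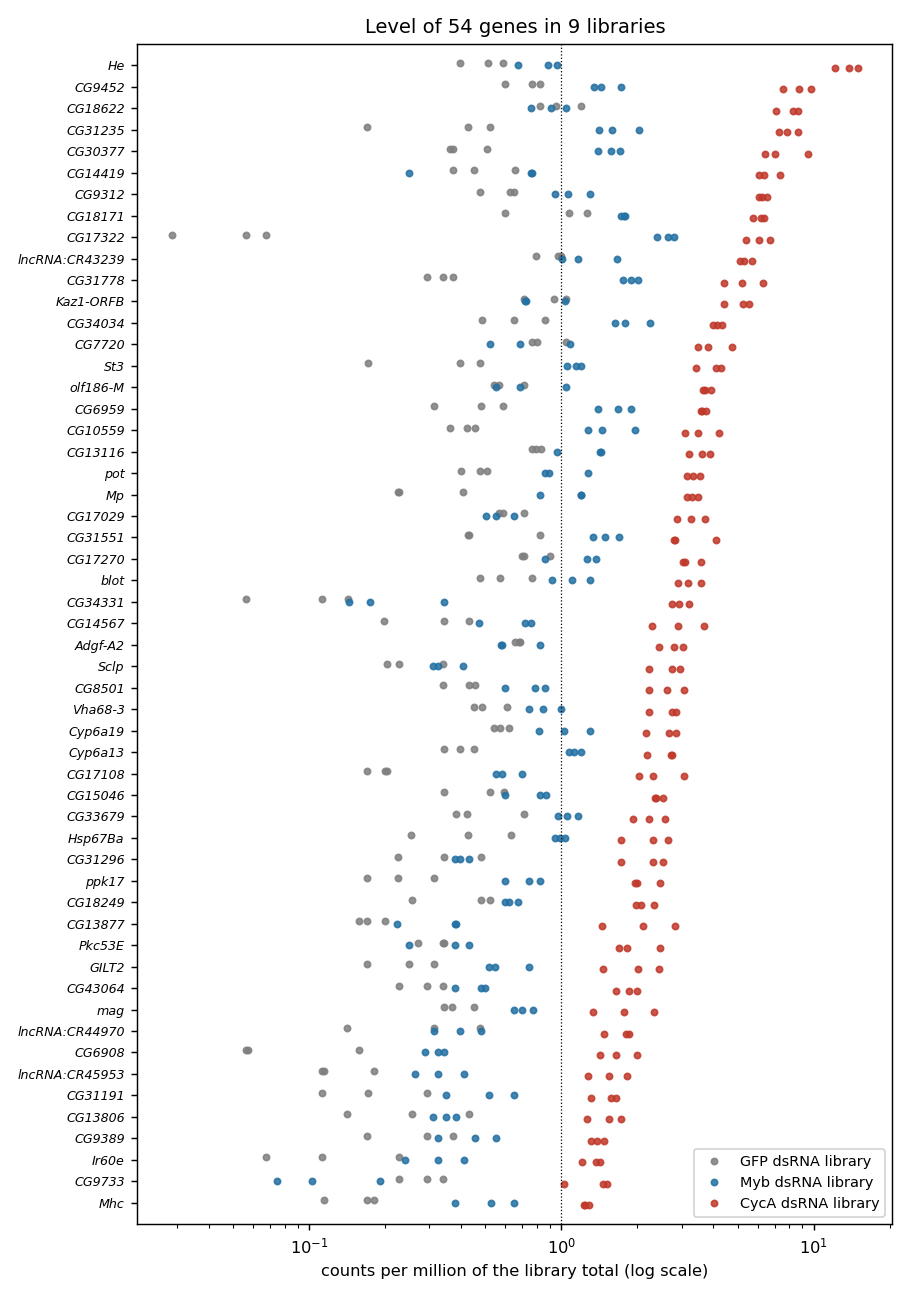
Level of each of the 54 genes in each library, in CPM on a log axis, with 1 point per library (grey GFP dsRNA, blue Myb dsRNA, red CycA dsRNA) and genes ordered by their mean after CycA dsRNA. The red points lie to the right of the other 6 in every row, while blue and grey points overlap in 14 of the 54 rows.

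The genes at the edges of the rule show how close the choice was. For the control ceiling, *CG18622* (0.989 CPM) and *CG18171* (0.979 CPM) were just inside, and *Cyp12c1* (1.05 CPM) and *modSP* (1.06 CPM) just outside. For the floor in the lowest CycA dsRNA library, *CG9733* (1.02 CPM) and *Ir60e* (1.21 CPM) were inside, and *CG13796* (0.977 CPM) and *CG11898* (0.973 CPM) outside. For the ratio to control, *Adgf-A2* (4.10) and *CG17270* (4.17) were inside, and *CG13924* and *DIP-epsilon* (both 3.81) outside. For the ratio to Myb dsRNA, *CG33679* (2.11) and *CG31551* (2.15) were inside, and *Tsf1* (2.00) and *CG4009* (1.99) outside. CPM scaled with TMM factors in place of library totals kept all 54 and added 11.

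A role was assigned to 32 of the 54. The others, most of them with a CG number for a name, were given none here, which does not mean that none is known. Among the 32 were 8 genes of the cell surface or extracellular matrix, 5 of transporters and channels, 12 of enzymes, 2 of protease inhibitors, 2 of a chaperone and a muscle protein, and 3 long noncoding RNAs. Unnamed CG genes made up 59.3% of the 54 and 36.8% of all genes tested. No class name below implies that the class as a whole changed.

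*He* (Hemese, 2L:13972096-13972947) encodes a surface glycoprotein of blood cells and had the highest level of the 54 after CycA dsRNA, both in CPM and per length of exon. It stood at 0.587, 0.513 and 0.395 CPM in the GFP dsRNA libraries, 13.8, 12.1 and 14.99 in the CycA dsRNA libraries and 0.887, 0.960 and 0.671 in the Myb dsRNA libraries. The CycA dsRNA libraries form a group far above the rest, and the Myb dsRNA libraries lie just above the control ones without overlap. Its mean after CycA dsRNA was 27.4 times control and 16.2 times that after Myb dsRNA, the largest ratio to Myb dsRNA among the 54, and its level per kb of exon was 20.3 CPM against a median of 13.4 CPM per kb over all genes tested. The same gene is thus above the typical expressed gene per length after CycA dsRNA and far below it in control, where the median tested gene had 14.4 CPM per kb.

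The other cell surface and matrix genes rose less. *CG30377*, a predicted membrane protein, stood at 0.361, 0.371 and 0.508 CPM in control, 9.51, 6.43 and 6.995 CPM after CycA dsRNA and 1.70, 1.58 and 1.39 CPM after Myb dsRNA. *Mp*, a collagen of the type XV and XVIII kind that is found in basement membranes, stood at 0.406, 0.228 and 0.226 CPM in control, 3.47, 3.16 and 3.29 CPM after CycA dsRNA and 1.20, 0.823 and 1.19 CPM after Myb dsRNA. Both lie in 3 separate bands, with Myb dsRNA in the middle. *pot* (papillote), a zona pellucida domain protein that fastens the epidermis to the cuticle, stood at 0.474, 0.399 and 0.508 CPM in control, 3.54, 3.16 and 3.32 CPM after CycA dsRNA and 1.27, 0.858 and 0.895 CPM after Myb dsRNA. *CG6959*, a predicted membrane protein related to human TPBG, stood at 0.587, 0.314 and 0.480 CPM in control, 3.57, 3.72 and 3.60 CPM after CycA dsRNA and 1.89, 1.68 and 1.39 CPM after Myb dsRNA. In *CG6959* the Myb dsRNA libraries reached close to the level that would have put it outside the rule, and its CycA dsRNA libraries had the smallest spread relative to their mean of the 54. The 3 others, *CG34034*, *CG13116* and *CG8501*, had ratios to control of 6.25, 4.49 and 6.46. In all 8 genes every Myb dsRNA library lay above every control library, as in 40.2% of all genes tested.

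Among transporters and channels, *CG7720*, with the synonym dSLC5A1, was the most abundant and stood at 1.04, 0.799 and 0.763 CPM in control, 4.74, 3.49 and 3.81 CPM after CycA dsRNA and 1.08, 0.686 and 0.522 CPM after Myb dsRNA. Its Myb dsRNA and control libraries overlapped. *blot*, a transporter of the sodium neurotransmitter symporter family, stood at 0.474, 0.570 and 0.763 CPM in control, 3.57, 3.18 and 2.91 CPM after CycA dsRNA and 1.10, 1.30 and 0.920 CPM after Myb dsRNA. *Vha68-3*, a form of the catalytic subunit of the vacuolar proton pump, stood at 0.610, 0.485 and 0.452 CPM in control, 2.23, 2.85 and 2.75 CPM after CycA dsRNA and 0.743, 0.995 and 0.845 CPM after Myb dsRNA. Its ratio to control was 5.06, and of 21 vacuolar ATPase genes tested it was the only member. With *Vha68-3* counted, 2 of the 21 (9.52%) were called higher after CycA dsRNA, beside 21.2% of all genes tested, and none lower. *ppk17*, a sodium channel of the pickpocket family, rose 9.04 times over control, and *Ir60e*, an ionotropic receptor, 9.80 times from a control mean of 0.136 CPM. *Ir60e* was thus scarce everywhere, at 1.37, 1.42 and 1.21 CPM in the CycA dsRNA libraries.

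The enzymes made up the largest named group. *CG17322* (2L:18826770-18829059), a predicted UDP-glycosyltransferase, had the largest ratio to control of the 54, 119, and the lowest control level, with 3, 1 and 2 counts in the control libraries. It stood at 0.0677, 0.0285 and 0.0565 CPM in the GFP dsRNA libraries, 6.04, 6.71 and 5.40 in the CycA dsRNA libraries and 2.40, 2.64 and 2.78 in the Myb dsRNA libraries. Each group stands apart from the others by several times its own spread, and Myb dsRNA alone brought the gene to 51.2 times control, so that it entered the set with a CycA dsRNA mean only 2.32 times that of Myb dsRNA. With so few control counts the size of both ratios to control is uncertain.

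*CG9452*, a predicted acid phosphatase, stood at 0.768, 0.599 and 0.819 CPM in control, 7.55, 8.73 and 9.77 CPM after CycA dsRNA and 1.73, 1.44 and 1.34 CPM after Myb dsRNA. *CG31235*, which RefSeq names *naz* and places on 3R:18316075-18328942 of the Release 6 assembly, is a predicted dehydrogenase of the retinol dehydrogenase kind and stood at 0.519, 0.428 and 0.169 CPM in control, 8.65, 7.83 and 7.25 CPM after CycA dsRNA and 2.04, 1.41 and 1.59 CPM after Myb dsRNA. In both genes the Myb dsRNA libraries lay between the other groups, nearer to control. *St3*, a sulfotransferase, stood at 0.474, 0.171 and 0.395 CPM in control, 4.29, 4.10 and 3.42 CPM after CycA dsRNA and 1.05, 1.20 and 1.14 CPM after Myb dsRNA. *CG10559*, a predicted transferase of phosphate groups, stood at 0.361, 0.456 and 0.424 CPM in control, 3.47, 4.22 and 3.09 CPM after CycA dsRNA and 1.97, 1.27 and 1.44 CPM after Myb dsRNA. *CG6908*, with the same kind of prediction, rose 18.6 times over control from 11 control counts in all, to 1.99, 1.42 and 1.65 CPM. These 3 enzymes again had every Myb dsRNA library above control.

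The cytochrome P450 enzymes oxidise hormones, lipids and foreign compounds, and 2 of 55 tested were among the 54. *Cyp6a13* stood at 0.452, 0.342 and 0.395 CPM in control, 2.75, 2.18 and 2.73 CPM after CycA dsRNA and 1.13, 1.20 and 1.07 CPM after Myb dsRNA. *Cyp6a19* stood at 0.542, 0.570 and 0.621 CPM in control, 2.16, 2.85 and 2.67 CPM after CycA dsRNA and 0.815, 1.30 and 1.02 CPM after Myb dsRNA. The pair had the same order of groups, with ratios to control of 6.44 and 4.43. Over all 55, 27 (49.1%) were called higher and 3 lower in CycA dsRNA iECs, beside 21.2% and 14.1% of all genes tested, so most P450 genes that rose were outside the rule. Of the 20 that were under 1 CPM in control, 11 were called higher, near the 53.8% of all such genes tested. The 11 include *Cyp6a13* and *Cyp6a19*, which the rule chose.

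Of the remaining enzymes, *Adgf-A2*, an adenosine deaminase-related growth factor, stood at 0.655, 0.685 and 0.678 CPM in control, 3.02, 2.44 and 2.80 CPM after CycA dsRNA and 0.575, 0.583 and 0.820 CPM after Myb dsRNA. Its Myb dsRNA libraries overlapped control, and it had the lowest ratio to control of the 54. *GILT2*, a thiol reductase, stood at 0.248, 0.314 and 0.169 CPM in control, 2.44, 2.02 and 1.47 CPM after CycA dsRNA and 0.743, 0.515 and 0.547 CPM after Myb dsRNA. *mag* (magro), a lipase, stood at 0.452, 0.342 and 0.367 CPM in control, 1.34, 2.32 and 1.77 CPM after CycA dsRNA and 0.695, 0.652 and 0.771 CPM after Myb dsRNA. *GILT2* and *mag* were among the 3 genes with the widest relative spread over the CycA dsRNA libraries, with an SD of 24.7% and 27.3% of the mean, beside 12.0% for the median member. *Pkc53E*, a protein kinase C, had means of 0.317, 1.99 and 0.352 CPM in control, CycA dsRNA and Myb dsRNA cells, and its Myb dsRNA libraries overlapped control.

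Both protease inhibitors had a mean above 5 CPM after CycA dsRNA. *CG31778* (2L:3704106-3705488), a predicted serine protease inhibitor, stood at 0.294, 0.371 and 0.339 CPM in control, 6.32, 5.22 and 4.42 CPM after CycA dsRNA and 1.89, 1.75 and 2.01 CPM after Myb dsRNA. *Kaz1-ORFB*, a Kazal domain protein, stood at 1.04, 0.713 and 0.932 CPM in control, 4.43, 5.55 and 5.25 CPM after CycA dsRNA and 1.03, 0.720 and 0.721 CPM after Myb dsRNA. The first rose with Myb dsRNA as well, to 5.64 times control, while the second had Myb dsRNA libraries within the range of control.

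*Hsp67Ba*, a small heat shock protein, stood at 0.632, 0.428 and 0.254 CPM in control, 2.30, 2.63 and 1.72 CPM after CycA dsRNA and 0.983, 1.03 and 0.945 CPM after Myb dsRNA. *Mhc*, the myosin heavy chain of muscle, stood at 0.181, 0.114 and 0.169 CPM in control, 1.24, 1.23 and 1.29 CPM after CycA dsRNA and 0.527, 0.377 and 0.646 CPM after Myb dsRNA. *Mhc* had the lowest level per length of the 54, at 0.138 CPM per kb of exon after CycA dsRNA, and its CycA dsRNA libraries differed by only a few hundredths of a CPM. Of 12 heat shock protein genes tested, 7 (58.3%) were called higher and 1 lower in CycA dsRNA iECs. Among the 4 under 1 CPM in control, 2 were called higher. *Hsp67Ba*, which the rule chose, is counted in both the 7 and the 2. Of 18 muscle genes tested, 12 (66.7%) were called higher and none lower, *Mhc* included, which the rule chose, and 7 of the 12 were among the 8 under 1 CPM in control. The share called higher was 21.2% of all genes tested and 53.8% of those under 1 CPM in control.

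The 3 noncoding RNAs had ratios to control of 5.83 (*lncRNA:CR43239*), 5.52 (*lncRNA:CR44970*) and 11.4 (*lncRNA:CR45953*). The most abundant, *lncRNA:CR43239*, stood at 0.971, 0.998 and 0.791 CPM in control, 5.12, 5.29 and 5.68 CPM after CycA dsRNA and 1.01, 1.17 and 1.67 CPM after Myb dsRNA. Among 279 long noncoding RNAs tested, 79 (28.3%) were called higher and 25 lower in CycA dsRNA iECs, beside 21.2% and 14.1% of all genes tested. Of the 155 under 1 CPM in control, 51 were called higher, a smaller share than the 53.8% of all such genes. The 51 include the 3 that the rule chose.

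Of the genes without a stated role, *CG18622* was the most abundant and stood at 0.948, 1.20 and 0.819 CPM in the GFP dsRNA libraries, 7.11, 8.68 and 8.31 in the CycA dsRNA libraries and 0.911, 0.755 and 1.04 in the Myb dsRNA libraries. The Myb dsRNA and control libraries overlap, and the ratio to control was 8.13. *CG14419* stood at 0.655, 0.371 and 0.452 CPM in control, 6.35, 6.07 and 7.33 CPM after CycA dsRNA and 0.767, 0.755 and 0.249 CPM after Myb dsRNA. *CG9312* stood at 0.474, 0.627 and 0.650 CPM in control, 6.52, 6.24 and 6.10 CPM after CycA dsRNA and 1.29, 1.06 and 0.945 CPM after Myb dsRNA. *CG14419* and *CG9312* came after *He* in level per length, at 9.03 and 7.79 CPM per kb of exon. *CG34331* stood at 0.113, 0.143 and 0.0565 CPM in control, 3.19, 2.75 and 2.93 CPM after CycA dsRNA and 0.144, 0.343 and 0.174 CPM after Myb dsRNA, with 12 control counts in all and a ratio to control of 28.4, the next after *CG17322*. Its CycA dsRNA libraries were set far apart, and its Myb dsRNA libraries lay above the control ones without overlap, the lowest by a narrow margin.

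*CG18171* stood at 1.26, 0.599 and 1.07 CPM in control, 6.18, 5.76 and 6.33 CPM after CycA dsRNA and 1.77, 1.72 and 1.79 CPM after Myb dsRNA. *CG17108* stood at 0.203, 0.200 and 0.169 CPM in control, 2.30, 3.06 and 2.03 CPM after CycA dsRNA and 0.551, 0.583 and 0.696 CPM after Myb dsRNA. The first is near the control ceiling and the second well under it, and both had every Myb dsRNA library above control. *CG13877* rose 12.1 times and had the widest relative spread of the 54 among the CycA dsRNA libraries (2.82, 1.45 and 2.11 CPM, an SD of 32.2% of the mean). *Sclp* had means of 0.257, 2.64 and 0.346 CPM in the order control, CycA dsRNA and Myb dsRNA. *CG14567* had means of 0.323, 2.95 and 0.649 CPM in the same order. The other 12 without a stated role, besides *CG9733* below, were *CG13806*, *CG15046*, *CG17029*, *CG17270*, *CG18249*, *CG31191*, *CG31296*, *CG31551*, *CG33679*, *CG43064*, *CG9389* and *olf186-M*, with ratios to control between 4.17 and 7.84.

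**Figure D2:**
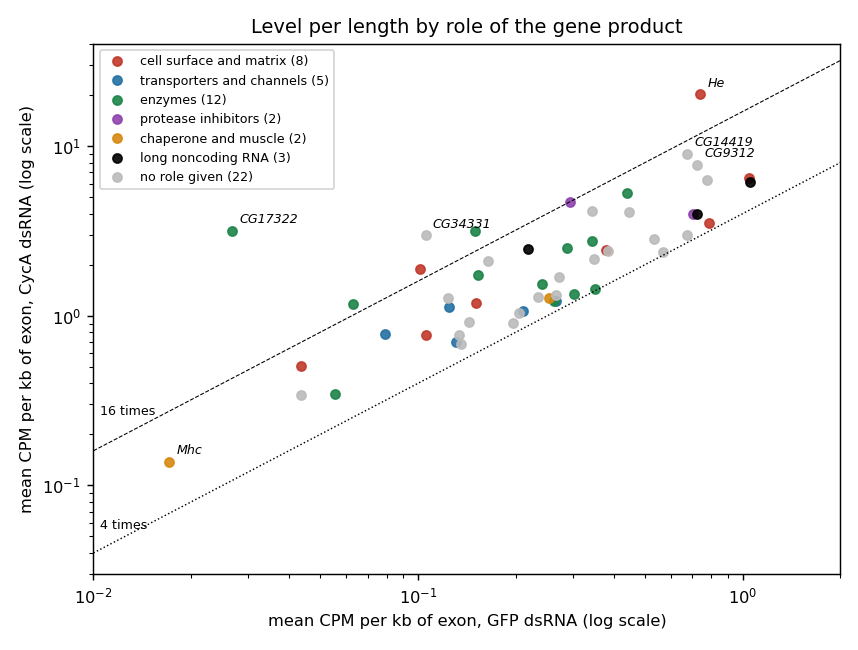
Mean level per kb of exon after CycA dsRNA (vertical) against control (horizontal), both in CPM per kb on log axes, with 1 point per gene coloured by the role of its product and lines at 4 and 16 times control. *He* lies highest at 20.3 CPM per kb, *Mhc* lowest at 0.138, and *CG17322* lies farthest from the lines, at 119 times control.

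Myb dsRNA against control was not a criterion, although the rule capped both means and used the same libraries, so the counts that follow are not independent of it. Of the 54, 33 (61.1%) were called higher in Myb dsRNA iECs than in control, beside 14.9% of all genes tested, 1 was called lower, beside 6.78%, and 20 were not called. Among the 1772 tested genes with a control mean under 1 CPM, many of which passed the expression filter only through the group that raised them, 49.0% were called higher and 2.99% lower. The 3 Myb dsRNA libraries all lay above the 3 control libraries in 39 members, against 40.2% of all genes tested, all below in 1, against 23.9%, and overlapped in 14. The median log2 fold change of the 54 was 0.81, close to the 0.77 of the 1772 scarce genes. Most of the 54, 33, were thus also called higher after Myb dsRNA. That the rise was smaller than after CycA dsRNA was set by the rule, and nothing is read from it. The share called was above that of the scarce genes and the median change was close to theirs, and neither difference was tested.

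The largest changes after Myb dsRNA, by edgeR, were in *CG17322* (log2 fold change 5.48 ± 0.29 (SE), adjusted p = 2.29e-09), *CG31778* (2.43 ± 0.24 (SE), adjusted p = 1.14e-06), *CG31235* (2.07 ± 0.27 (SE), adjusted p = 1.65e-05), *CG10559* (1.87 ± 0.25 (SE), adjusted p = 2.46e-05) and *CG30377* (1.85 ± 0.28 (SE), adjusted p = 6.61e-05). They are 3 enzymes, a protease inhibitor and a surface protein. By role, 8 of 8 cell surface and matrix genes, 10 of 12 enzymes, 4 of 5 transporters and channels, and both of the chaperone and muscle genes were called higher, compared with 1 of 2 protease inhibitors, 1 of 3 noncoding RNAs and 7 of 22 genes without a stated role. Over all genes tested 14.9% were called higher, and 49.0% of those under 1 CPM in control. The classes are small and hold only genes that the rule chose, and differences between them were not tested.

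*CG9733* was the only gene of the 54 called lower after Myb dsRNA. It stood at 0.294, 0.228 and 0.339 CPM in the GFP dsRNA libraries, 1.51, 1.02 and 1.47 in the CycA dsRNA libraries and 0.192, 0.103 and 0.0746 in the Myb dsRNA libraries. Myb dsRNA libraries lie below control and CycA dsRNA libraries above. The rise after CycA dsRNA was set by the rule, which also capped the Myb dsRNA mean, so nothing is read from the opposite sides. The log2 fold change after Myb dsRNA was -1.24 ± 0.44 (SE) (edgeR, adjusted p = 0.0261). The control counts were few, 33 in all, and the call was lost when any of 4 libraries was left out (GFP dsRNA replicate 1 or 3, Myb dsRNA replicate 2 or 3, with adjusted p of 0.0541, 0.0712, 0.0633 and 0.108).

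The call for *He* after Myb dsRNA was near its threshold (log2 fold change 0.64 ± 0.26 (SE), adjusted p = 0.0447 by edgeR). It was lost without GFP dsRNA replicate 2 or 3, CycA dsRNA replicate 1, or Myb dsRNA replicate 1 or 2, with adjusted p from 0.0552 to 0.157. Of the 33 genes called higher, 23 kept that call under each alternative in which they were tested, and 10 lost it under 1 or more (*He*, *CG13116*, *CG14567*, *CG8501*, *Vha68-3*, *Cyp6a19*, *mag*, *lncRNA:CR45953*, *CG31191* and *Ir60e*). In the other direction, 3 genes that were not called became called higher under some of 18 alternatives, *CG17270* under 6, *CG15046* under 5 and *lncRNA:CR43239* under 1. Among the 20 not called, the log2 fold change ran from -0.25 (*CG7720*) to 0.90 (*CG34331*) with a median SE of 0.27. The genes called and not called had similar control counts, with medians of 47 and 52.5 over the group.

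**Figure D3:**
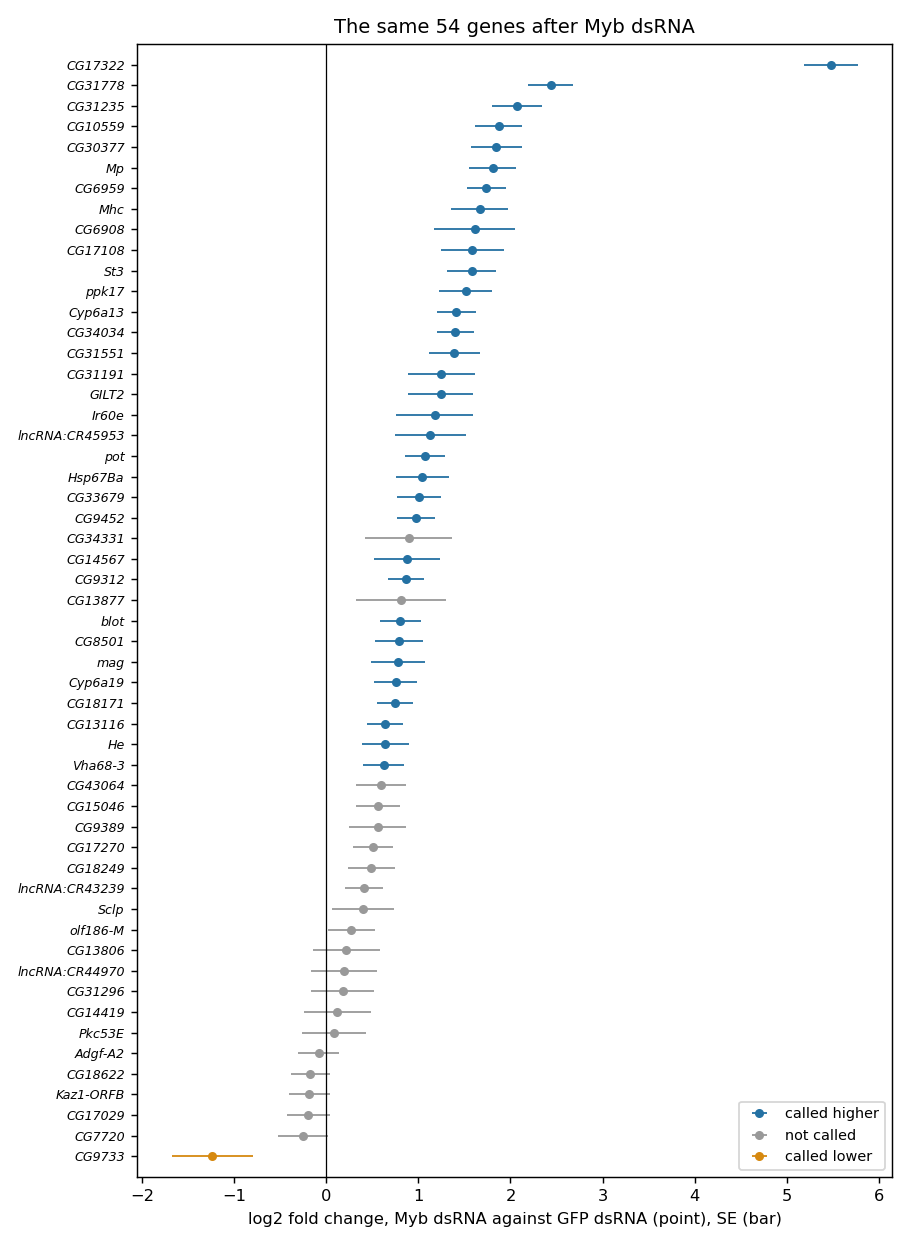
Log2 fold change of each of the 54 genes in Myb dsRNA against GFP dsRNA cells (point) with its SE (bar), from edgeR, coloured by whether the gene was called. 33 genes were called higher, 20 were not called, and *CG9733* alone was called lower, at -1.24.

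Several properties that the rule did not use were compared with all genes tested, without a test. The median exon length was 1650.5 bases, against 2035 for all genes tested and 1690 for the tested genes under 1 CPM in control. Of 53 members found in the Ensembl annotation, 50 (94.3%) were protein coding, against 93.4%. The 53 lay on arms 2L (11), 2R (8), 3L (15), 3R (14) and X (5), with none on chromosome 4. The X held 9.26% of the 54 and 17.3% of genes tested, and 3L held 27.8% and 18.8%. No promoter or protein sequence was compared.

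The genes were mostly scattered. Only 6 of the 53 with a position lay within 10 kb of another, in 3 pairs. *Kaz1-ORFB* and *CG13877* lay 10 bases apart on 3L, *pot* and *Sclp* 2744 bases apart on X, and *ppk17* and *Mhc* 6012 bases apart on 2L. *CG43064* (3L:11834721-11836721) lay 1143 bases from *CycA* itself, the gene targeted by the dsRNA, and stood at 0.294, 0.228 and 0.339 CPM in control, 1.65, 1.99 and 1.85 CPM after CycA dsRNA and 0.479, 0.377 and 0.497 CPM after Myb dsRNA. It was the member nearest to either target gene. Its CycA dsRNA libraries lie above the others, a difference set by the rule. A link to the fall of *CycA* mRNA was not tested.

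The other genes near the 54 were not chosen by the rule, though they were measured in the same libraries. Of 172 tested genes within 10 kb of a member, 63 (36.6%) were called higher and 20 (11.6%) lower in CycA dsRNA iECs, beside 21.2% and 14.1% of all genes tested. The target *CycA* is among the 20. Within 5 kb 41.9% were called higher, and within 20 kb 28.3%. Leaving out those that share exon bases with a member, 58 of 162 (35.8%) were called higher. The share was 80.0% for 40 neighbours under 1 CPM in control, against 53.8% of all such genes tested. It was 23.5% for 132 neighbours at 1 CPM or more, against 13.4% of the 7459 such genes. Only 172 of the 312 genes within 10 kb were tested. Many genes under 1 CPM passed the expression filter only through the group that raised them, so the 80.0% and 53.8% are not rates among all scarce genes. After Myb dsRNA 15.1% of the 172 were called higher and 8.72% lower, near the 14.9% and 6.78% of all genes tested. The neighbours include runs of related genes, which are not independent of each other, and no test of their share was made.

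**Figure D4:**
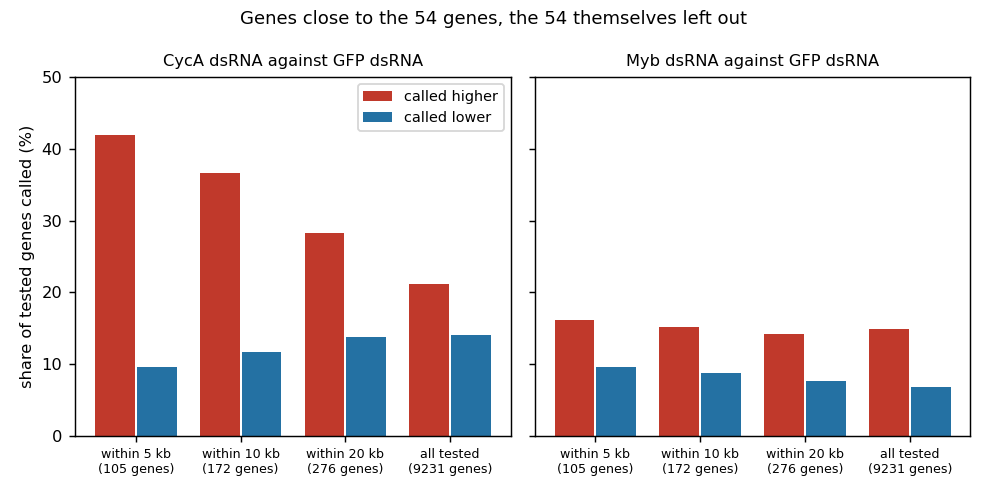
Share of tested genes called higher (red) or lower (blue) in CycA dsRNA (left) and Myb dsRNA (right) against GFP dsRNA cells, in percent, for genes within 5, 10 and 20 kb of any of the 54 and for all genes tested. In the left panel the share called higher is 41.9%, 36.6% and 28.3% with distance and 21.2% over all genes, while in the right panel the share called higher stays between 14.1% and 16.2%.

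The neighbours called higher were spread over 39 of the 51 members that had a tested neighbour, with the most, 6 each, beside *CG10559* and *Hsp67Ba*, and 4 beside *He*. *He* lies among the Nimrod genes, which encode receptors and secreted proteins of phagocytic blood cells. *NimC1*, a phagocytosis receptor 211 bases from *He*, had means of 0.443, 0.944 and 0.255 CPM in control, CycA dsRNA and Myb dsRNA cells (log2 fold change 1.18 in CycA dsRNA against control). *NimB2* had means of 0.0530, 0.430 and 0.281 CPM and *NimA* of 0.0889, 0.539 and 0.210 CPM, in the same order. These neighbours rose with *He* after CycA dsRNA but stayed near or below 1 CPM, well under *He*.

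*Hsp67Ba* lies in a cluster of small heat shock genes, whose products keep damaged proteins from clumping. *Hsp23* had means of 51.1, 189.8 and 50.8 CPM in control, CycA dsRNA and Myb dsRNA cells, *Hsp26* of 44.8, 94.4 and 41.3 CPM and *Hsp27* of 13.2, 24.5 and 11.6 CPM. *Hsp67Bc* had means of 0.523, 0.810 and 0.484 CPM. All 4 were called higher in CycA dsRNA iECs, with log2 fold changes of 1.94, 1.12, 0.94 and 0.70 in that order, and their Myb dsRNA means lay beside control. The cluster thus holds genes that were already well expressed in control as well as the scarce *Hsp67Ba*.

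Beside *CG10559* all 6 tested neighbours were called higher. *CG31436* had means of 14.1, 39.2 and 14.01 CPM in control, CycA dsRNA and Myb dsRNA cells, and *CG10553*, *CG10560* and *CG10562* stayed under 1 CPM in every group. Beside *Cyp6a19* 3 of 7 tested neighbours were called higher, among them the P450 genes *Cyp6a8*, with means of 5.56, 36.8 and 6.16 CPM, and *Cyp6a9*, with means of 34.3, 88.9 and 39.2 CPM. The P450 genes *Cyp6a22*, *Cyp6a23* and *Cyp6a17* beside them were not called, at log2 fold changes of 0.11, 0.43 and 0.47. *GILT3*, 474 bases from *GILT2*, had means of 0.0907, 0.809 and 0.442 CPM, and *St1*, 425 bases from *St3*, of 1.64, 3.37 and 2.81 CPM. *GILT3* was 1 of 3 called higher among 7 tested neighbours of *GILT2*, and *St1* the only 1 called higher among 5 of *St3*, where 2 were called lower.

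Overlapping genes limit what some counts mean. The libraries were prepared with a stranded kit, but whether counting used the strand is not stated in the methods. In the annotation 26 members overlap another gene, 17 share exon bases with it, 15 of them on the opposite strand and 3 on the same strand, and 7 share at least 20% of their exon bases. *CG13877* shares 93.2% of its exon bases with *pyx*, on the opposite strand, which had means of 0.727, 2.42 and 1.01 CPM in the 3 groups, so the rise of *CG13877* cannot be told apart from that of *pyx* if strand was ignored. *Hsp67Ba* shares 75.9% with the antisense RNA *asRNA:CR43481*, whose means were 0.466, 0.770 and 0.606 CPM in control, CycA dsRNA and Myb dsRNA cells. *Cyp6a19* shares 20.8% with *Cyp6a9*, whose CycA dsRNA mean was 34.7 times its own, *CG33679* shares 26.8% with *TfIIS*, which fell, and *Adgf-A2* shares 5.08% with *Adgf-A* on the same strand, whose means were 34.9, 156 and 21.8 CPM. *lncRNA:CR45953* lies on the strand of *rgn* and shares no exon base with it, while *rgn* had means of 33.7, 525 and 43.9 CPM. *CG18171* is placed likewise within *drpr* (22.9, 117 and 32.8 CPM). Among the 37 members that share no exon bases, the median ratio to control was 6.27, and the rule set a minimum for this ratio in every member. Of the 37, 21 were called higher after Myb dsRNA, 1 lower and 15 not called. The 37 are not free of overlap, since they include *lncRNA:CR45953*, *CG18171* and *olf186-M*, which overlap a gene on the same strand outside its exons. The part of overlapping genes in the counts was not tested.

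Marker lists of the cells that S2 cultures could resemble were counted, and they were written with earlier results of these data known. Of 17 tested plasmatocyte genes, 12 (70.6%) were called higher and none lower after CycA dsRNA, *He* among them by the rule. The shares over all genes tested were 21.2% and 14.1%. Of the 8 under 1 CPM in control, 7 were called higher, *He* included, beside 53.8% of all such genes tested. After Myb dsRNA 8 of the 17 (47.1%) were called higher and none lower, beside 14.9% and 6.78% of all genes tested. The summed level of the 21 listed plasmatocyte genes was 823 to 949 CPM in control, 1372 to 1456 CPM after CycA dsRNA and 1119 to 1232 CPM after Myb dsRNA. None of the 21 was at 0 throughout. The blood cell receptor *eater* had means of 3.08, 47.5 and 2.35 CPM in control, CycA dsRNA and Myb dsRNA cells and failed the rule by its control level, whereas the plasmatocyte gene *Hml* (0.668, 0.800 and 0.507 CPM) was scarce in all 3 groups. The blood cell factor *srp* was at 204, 187 and 209 CPM, so this marker of the labelled cells was well expressed in every group. Some genes of the list were thus far higher after CycA dsRNA and others were not.

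The other marker lists held few or none of the 54. Crystal cell and lamellocyte genes held none, with 10 of 13 tested (76.9%) called higher after CycA dsRNA and none called lower. After Myb dsRNA 6 of the 13 (46.2%) were called higher and 3 lower. Their sums were 2386 to 2931 CPM in control and 4496 to 4756 CPM after CycA dsRNA. Muscle genes held *Mhc* and summed to 1522 to 1843 CPM in control and 2078 to 2170 CPM after CycA dsRNA. Of the 18 muscle genes tested, 8 (44.4%) were called higher and none lower after Myb dsRNA. Neuron genes held none, with 17 of 26 (65.4%) called higher and 1 lower after CycA dsRNA and 11 higher and 1 lower after Myb dsRNA. Germline genes held none, with 12 of 34 (35.3%) higher and 5 lower after CycA dsRNA and 20 (58.8%) higher and 2 lower after Myb dsRNA. Of 11 tested antimicrobial peptide genes all were called higher in CycA dsRNA iECs and 9 lower in Myb dsRNA iECs, but none was among the 54. Of 19 tested ecdysone response genes 6 (31.6%) were called higher and none lower, and none was among the 54. The share called higher over all genes tested was 21.2% after CycA dsRNA and 14.9% after Myb dsRNA, and for genes under 1 CPM in control 53.8% and 49.0%. The share called lower was 14.1% and 6.78% over all genes tested, and 3.33% and 2.99% for genes under 1 CPM in control. Of the tested neuron and germline genes, 14 each were under 1 CPM in control, of which 11 and 8 were called higher after CycA dsRNA. The part of any of these lists in the rise of the 54 was not tested.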

How the data were processed

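RNA of 9 S2 cell libraries, 3 each of GFP dsRNA, CycA dsRNA and Myb dsRNA, was analysed. Per the labels and methods, FastQC 0.11.5 served for quality control, STAR 2.6.1a aligned the single-end reads to Release 6 of the fly genome, and featureCounts counted them over exons. The deposited count of each gene in each library is raw, with no normalization. The strand setting is not given in the sources used here. The authors' deposited tables of comparisons hold log2 fold changes and p-values from DESeq2, and none of their values was used. In the count table, 5 gene symbols stored as dates were restored from their identifiers, and every row names a gene.

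Library totals were 29128930 to 44280452 counts. CPM is the count over that total, and CPM per kb divides by the deposited exon length. With R 4.3.3 and edgeR 4.0.16, 9231 genes passed filterByExpr (minimum count 10) and the quasi-likelihood test used 1 model of the 3 groups, with TMM factors and all 9 libraries. Adjusted p-values (Benjamini-Hochberg) are over all 9231 genes, and the 3 comparisons share libraries. The fit was tested on simulated data. The members and the gene lists were chosen with earlier results of these data known. Genes were named by rule (targets, highest level per length, largest ratio, list members, genes at the thresholds, largest changes after Myb dsRNA, close pairs, widest spread), and other members and all neighbours were named after their values were seen. Positions are from the BDGP6.54 annotation, in Release 6 coordinates, where 17372 genes matched by identifier and 98.9% of these had the deposited exon length. Roles come from the study's annotation and general knowledge, and a CG number without annotation was given none. Alternatives changed the tool (DESeq2 1.42.0), scaling, filter, groups in the fit, fold threshold, a replicate block, the libraries (leaving out each) and each threshold of the rule. The replicates are separate samples of a group. Each p-value sets the difference between groups against the spread between replicates, estimated over all 9 libraries with information shared across genes.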

Additional observations from a re-analysis of the deposited data

How the results depend on the processing

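The rule gave 53 to 59 genes when each library was left out in turn, 65 with TMM-scaled CPM, 36 with a control ceiling of 0.5 CPM, 78 with a ceiling of 2 CPM, 23 at 8 times control, 27 at 4 times Myb dsRNA and 35 with a floor of 2 CPM in each CycA dsRNA library. Of the 54, 49 passed the filter with a minimum count of 50. Genes called higher in Myb dsRNA against GFP dsRNA were 25 to 33 of the 54 with 1 library left out and 31 to 35 otherwise. The single lower call became 0 with a minimum count of 50 and with only the 2 groups compared, where its gene was not tested, and was 0 to 1 with 1 library left out. Over all genes, dropping the fold threshold gave 3208 higher and 3322 lower calls in CycA dsRNA against GFP dsRNA, 2646 and 2683 in Myb dsRNA against GFP dsRNA, and 2904 and 3219 in CycA dsRNA against Myb dsRNA, since smaller changes then count. A minimum count of 50 gave 785 higher calls in Myb dsRNA against GFP dsRNA with fewer genes tested. Library totals alone moved the median log2 fold change of CycA dsRNA against Myb dsRNA to -0.13 over all genes and the share of its calls that were higher from 51.6% to 38.1%. Deviations of same-numbered libraries from their group means correlated from -0.05 to 0.10, and those of differently numbered ones from -0.09 to 0.04. Such low values do not decide whether the libraries are paired. Replicate 3 of CycA dsRNA and of Myb dsRNA is numbered 4 in the deposited counts, so the numbers may not mark the same experiment. With the replicate number as a block 34 of the 54 were called higher and 1 lower in Myb dsRNA against GFP dsRNA. The alternatives on promoter motifs were not run, as no genome sequence was used here. Low control counts, 6 to 115 over the group, limit the ratios to control and the calls after Myb dsRNA.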
